A study of Mus musculus with 33 samples.

Results

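The 30 genes described here encode the enzymes of sterol synthesis, their regulators and the enzymes of fatty acid synthesis and desaturation, and they were taken as a list of gene symbols matched to the count table, with no measured value in the rule. All 30 were among the 17120 genes tested. They comprised 18 sterol enzymes, 4 genes of regulation and sterol transport, and 8 fatty acid enzymes. RNA was sequenced from mouse embryonic stem (ES) cells, derived from blastocysts carrying the ScxGFP tendon reporter, as they were guided through paraxial mesoderm (PM) towards tendon or fibrocartilage. Embryoid bodies were formed in serum-free differentiation medium with the BMP inhibitor LDN-193189. LDN-193189 with the Wnt activator CHIR was then given until PM was collected at D6. The study's methods for its enhanced PM protocol also add AGN 193109 or all-trans retinoic acid at this stage, and which of these, if any, the sequenced PM received is not given in the labels, so that PM and all later groups may share such a treatment. All later cultures were monolayers in that medium with TGFβ1, the hedgehog agonist SAG and FGF2. They differed in the retinoid ligand: CD1530, an agonist of retinoic acid receptor γ, in the tendon condition, or AGN 193109 (AGN), an inverse agonist of retinoic acid receptors, in the fibrocartilage condition. Each condition was sampled at D6.25 and D6.75 on the day of plating and then at D7.5, D8.5 and D10, which with PM gave 11 groups of 3 libraries and 33 libraries in all. Every monolayer library received one ligand or the other, so the share of a difference due to either ligand cannot be told apart. The cultures were whole populations, and in bulk RNA fewer cells of a type and less RNA per cell cannot be told apart.

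Cells make cholesterol from acetyl-CoA through the mevalonate pathway, squalene and lanosterol, and they make fatty acids by carboxylating acetyl-CoA, extending the chain, and adding double bonds. Most of these enzymes are transcribed under sterol regulatory element binding proteins (SREBPs), which leave the endoplasmic reticulum with the escort protein SCAP when membrane sterol is low and are held back by INSIG proteins when it is high. Both pathways supply membrane to growing and secreting cells, and cholesterol also modifies the hedgehog ligand and takes part in hedgehog reception.

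The sequences upstream of 5 members are shown because they carry motifs by which this gene group is usually recognised and because these members are followed through the results below. RefSeq promoter windows (GRCm38.p6, 250 bases before to 50 after the transcript start) were at hand for 23 of the 30 members, in 28 windows, and not for Fdps, Fdft1, Sqle, Stard4, Scd1, Scd2 or Fads1. The printed stretches are the parts of the 250 upstream bases that lie outside annotated exons, 5′ to 3′ on the strand of the gene: chr13:119690101-119690350 (plus strand) for Hmgcs1, chr9:42264301-42264550 (minus) for Sc5d, chr1:169969242-169969408 (minus) for Hsd17b7, chr5:28071162-28071362 (plus) for Insig1 and chr8:122443423-122443672 (minus) for Mvd. Capitals mark the sterol regulatory element TCACNCCAC, the NF-Y motif CCAAT and the E-box CACGTG, each read on both strands, so that ATTGG is CCAAT of the other strand.
Hmgcs1: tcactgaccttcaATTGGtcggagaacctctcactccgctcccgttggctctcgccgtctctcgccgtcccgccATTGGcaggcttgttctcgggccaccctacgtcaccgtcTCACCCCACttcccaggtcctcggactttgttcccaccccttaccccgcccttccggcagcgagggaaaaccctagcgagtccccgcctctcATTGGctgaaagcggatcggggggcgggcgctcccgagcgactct
Sc5d: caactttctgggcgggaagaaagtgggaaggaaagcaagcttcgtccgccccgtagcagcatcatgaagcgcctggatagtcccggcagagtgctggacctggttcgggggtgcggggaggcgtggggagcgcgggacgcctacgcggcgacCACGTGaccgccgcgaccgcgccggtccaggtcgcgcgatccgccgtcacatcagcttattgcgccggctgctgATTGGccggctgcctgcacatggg
Hsd17b7: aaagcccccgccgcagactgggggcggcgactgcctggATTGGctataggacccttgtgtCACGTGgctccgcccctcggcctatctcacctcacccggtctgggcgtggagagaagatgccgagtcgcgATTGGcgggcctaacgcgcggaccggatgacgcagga
Insig1: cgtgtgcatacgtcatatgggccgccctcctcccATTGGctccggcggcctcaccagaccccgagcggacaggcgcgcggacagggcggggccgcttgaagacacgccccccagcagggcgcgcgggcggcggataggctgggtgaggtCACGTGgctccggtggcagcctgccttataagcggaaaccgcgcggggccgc
Mvd: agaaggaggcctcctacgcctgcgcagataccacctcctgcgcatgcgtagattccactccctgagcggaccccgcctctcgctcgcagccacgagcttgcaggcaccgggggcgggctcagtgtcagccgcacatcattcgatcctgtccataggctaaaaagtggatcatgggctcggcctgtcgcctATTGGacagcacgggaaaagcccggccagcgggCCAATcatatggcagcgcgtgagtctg

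The exact element TCACCCCAC, which TCACNCCAC contains, was found in 1 of the 23 members, Hmgcs1, where it lay 137 to 129 bases upstream of the start. Of all 32851 windows of this length, 0.551% held TCACCCCAC and 1.24% held TCACNCCAC. Sterol regulatory elements with other letters were not searched for, so members without these matches may still hold one. CCAAT was present in 19 of the 23 members, or 20 of the 28 windows, against 37.4% of all windows. CACGTG occurred in 4 members, Hsd17b7, Sc5d, Dhcr7 and Insig1, against 7.15% of all windows. The direct repeat bound by retinoic acid receptors was searched for only with a gap of 5 bases, between repeated units of 5 or 6 bases. Repeats with other gaps or other letters were not searched for. It was found in 0 of the 28 windows and, with the shorter unit, in 0.0761% of all windows. At so low a share a match in 28 windows was unlikely for any genes, so whether members hold such an element cannot be told from this search. All the motif matches given here describe letters in a short window and not the binding of a factor.

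Libraries held between 17.1 and 22.8 M counted reads, except for 1 AGN library at D8.5 with 38.1 M. The lowest count of any member in any library was 51, and the median over members of the replicate coefficient of variation was 2.76%. Levels are given as CPM, counts scaled to a common library size by the trimmed mean of M-values. Differences are log2 fold changes with their standard errors (SE), called at an adjusted p (Benjamini-Hochberg over all 17120 genes, edgeR quasi-likelihood test) under 0.05. One library stood apart on these genes: in CD1530 replicate 1 at D6.75 the fatty acid enzymes deviated from the group mean by -0.21 log2 units on average, against 0.09 and 0.12 in the other two replicates. Labels were checked against markers. The summed level of 5 PM markers (Tbx6, Msgn1, Mesp2, Cdx1 and T) was 122 to 132 CPM in PM and 9.28 to 28.2 CPM at D10. The summed fibrocartilage markers (Sox9, Col2a1, Acan, Matn4 and Col9a1) reached 235 to 241 CPM in CD1530 and 3077 to 3213 CPM in AGN at D10. The summed tendon markers (Scx, Mkx, Tnmd, Col1a1, Col3a1 and Tnc) were 17189 to 17858 CPM in CD1530 and 19649 to 20958 CPM in AGN at D10, so this list was not higher in the tendon condition. Of 8 adipocyte markers, which mark cells that also make much lipid, Pparg, Adipoq, Plin1 and Cidec were not in the table, and the other four summed to between 25.6 and 44.5 CPM in all libraries.

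Some members share sequence with other genes, and how reads that fit several genes or either strand were counted is not given in the sources used here. The share of a member's 50-base words found in another gene was 39.1% for Acat2, 30.4% for Acaca, 26.5% for Fdft1, 26.2% for Fdps, 25.3% for Idi1, 11.6% for Hmgcs1 and 9.87% for Tm7sf2, and it was at most 4.56% for the other 23 members. The values of these 7 genes are therefore uncertain.

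Levels spanned a wide range. Per kilobase of exon, Scd2 was the highest member, at a mean of 299 CPM per kb over the groups, followed by Acly at 109, Hmgcs1 at 87.0, Insig1 at 65.2, Fads1 at 63.7, Srebf2 at 63.2 and Cyp51 at 61.4 CPM per kb. The lowest were Acaca at 4.21 and Fdps at 1.31 CPM per kb. The desaturase Scd2, which places the first double bond into saturated fatty acyl chains and is the form typical of non-hepatic tissue, thus exceeded its paralogue Scd1 (48.7 CPM per kb) throughout.

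The mevalonate segment varied moderately over the 11 groups. Group means ran from 73.9 to 173 CPM for Acat2, the thiolase that joins acetyl-CoA units, and from 335 to 561 CPM for Hmgcs1, the synthase of HMG-CoA. The kinases Mvk and Pmvk ranged from 26.0 to 62.9 and from 16.1 to 34.6 CPM, and the decarboxylase Mvd from 45.2 to 94.4 CPM. Idi1, the isomerase of the isoprene unit, ranged from 25.0 to 40.8 CPM. Fdps, which builds farnesyl diphosphate, ranged from 3.24 to 9.26 CPM, and Fdft1, squalene synthase, from 130.4 to 201 CPM.

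The segment from squalene to cholesterol held the sterol enzymes with the widest ranges. Sqle, squalene epoxidase, ranged from 189.9 to 299.6 CPM, and Lss, which closes the sterol rings, from 65.5 to 162 CPM. The lanosterol demethylase Cyp51 ranged from 152 to 439 CPM and the sterol reductase Tm7sf2 from 17.05 to 44.7 CPM. The enzymes that strip methyl groups, Msmo1, Nsdhl and Hsd17b7, ranged from 102 to 204, from 43.9 to 83.2 and from 20.0 to 82.2 CPM. Ebp, the sterol isomerase, ranged from 21.9 to 49.0 CPM, Sc5d, a sterol desaturase, from 35.1 to 106 CPM, and Dhcr7, the reductase of dehydrocholesterol, from 52.7 to 139 CPM. Hsd17b7 had the largest ratio of highest to lowest group mean of all members, 4.12.

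Among the regulators, Srebf2, the main transcription factor of the sterol enzymes, had the smallest ratio of all members, 1.34 (391 to 524 CPM). Srebf1, which favours fatty acid enzymes, ranged from 109.6 to 223 CPM, the retention factor Insig1 from 147 to 285 CPM and the cholesterol carrier Stard4 from 52.2 to 97.7 CPM. Among the fatty acid enzymes, Acly, which makes cytosolic acetyl-CoA from citrate, ranged from 483 to 696 CPM, the carboxylase Acaca from 52.0 to 120.2 CPM and the synthase Fasn from 487 to 823 CPM. The elongase Elovl6 ranged from 91.5 to 170.4 CPM. The desaturases ranged from 134 to 395 CPM for Scd1, from 905 to 3189 CPM for Scd2, from 151 to 557 CPM for Fads1 and from 102 to 339 CPM for Fads2, Fads1 and Fads2 being desaturases of polyunsaturated chains. The highest group mean fell at D8.5 for 21 members, at D10 for 8 and in PM for 1, Ebp.

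**Figure D1:**
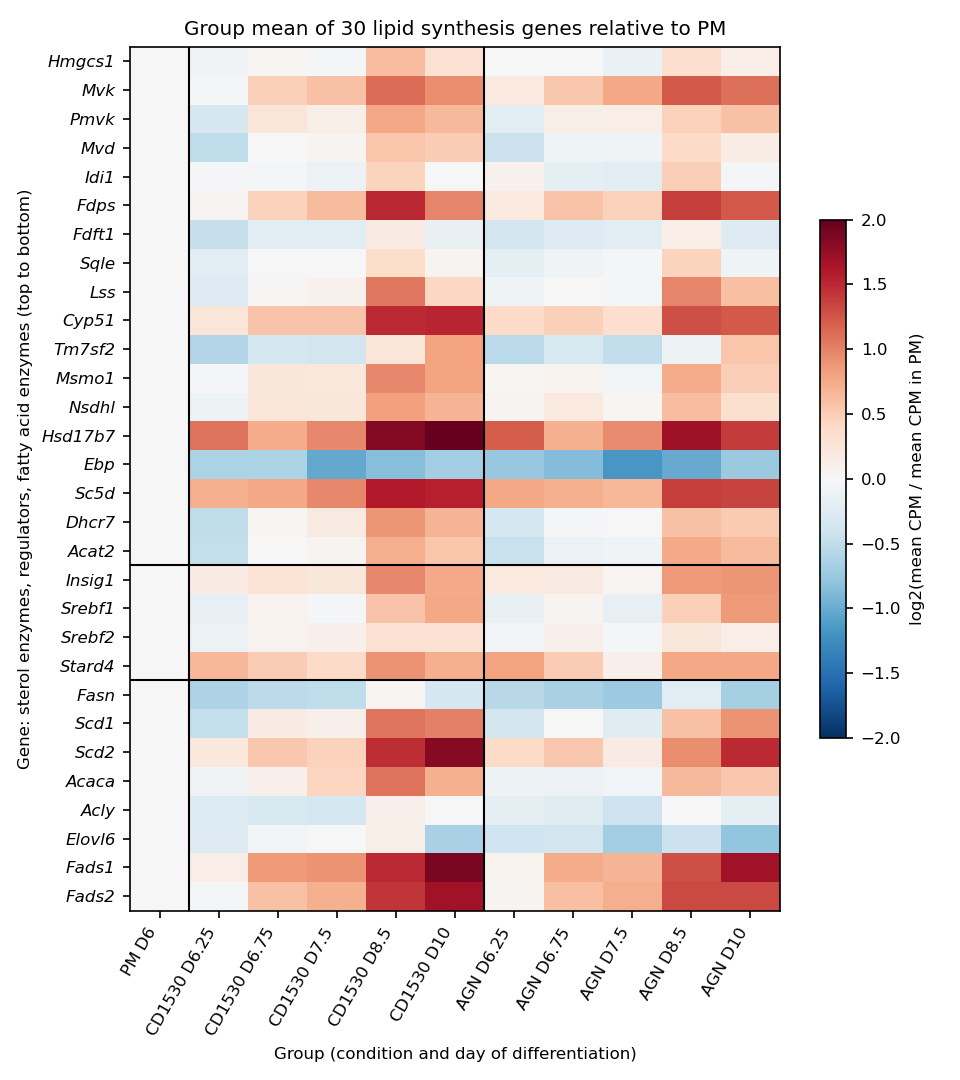
Each cell is the log2 ratio of a group's mean CPM to the mean in PM (colour scale, red higher and blue lower), with genes in rows by role and the 11 groups in columns. At D8.5 the members at or below PM are Ebp in CD1530, and Ebp, Elovl6, Fasn, Tm7sf2 and Acly in AGN, and the largest value is that of Hsd17b7 at D10 in CD1530.

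The clearest change of these genes came between D7.5 and D8.5, in both conditions. Of the 30 members, 28 rose in CD1530, where 18.8% of all genes were called higher over the same step, and 29 rose in AGN, where 21.4% were. In neither condition was a member called lower, and with edgeR and DESeq2 alike 0 members were lower at an unadjusted p under 0.05. DESeq2 called 28 and 29 members higher. The median log2 fold change of the members was 0.63 in CD1530, with a range of 0.12 to 1.02, and 0.60 in AGN, with a range of 0.17 to 1.00.

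All 3 roles took part. Of the 18 sterol enzymes 17 rose in each condition, at a median log2 fold change of 0.64 (CD1530) and 0.58 (AGN). The 4 regulators and carriers all rose, with medians of 0.57 and 0.65, and 7 fatty acid enzymes rose in CD1530 and 8 of 8 in AGN, with medians of 0.62 and 0.59. The summed level of the sterol enzymes went from 1719 ± 5.72 to 2698 ± 8.78 CPM in CD1530 (SD, n = 3) and from 1588 ± 8.45 to 2451 ± 33.1 CPM in AGN. The summed fatty acid enzymes went from 3218 ± 19.3 to 5447 ± 68.2 CPM and from 2714 ± 73.3 to 4188 ± 67.6 CPM. In each of these sums every D8.5 library lay above every D7.5 library.

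**Figure D2:**
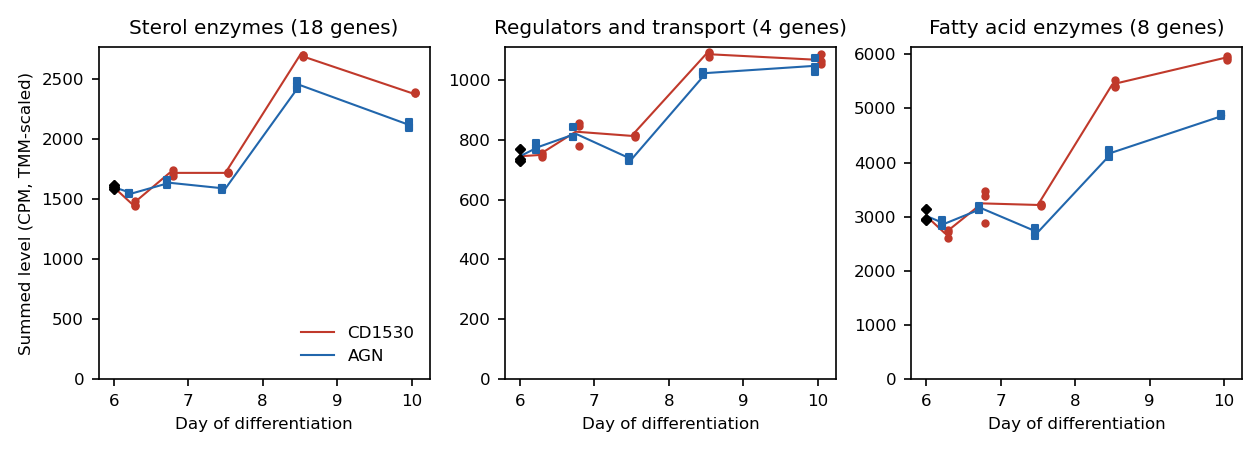
Summed CPM of the sterol enzymes, the regulators with sterol transport, and the fatty acid enzymes against day of differentiation, with 1 point per library (black diamonds PM, red circles CD1530, blue squares AGN, shifted slightly sideways to separate them) and lines through the group means. All 3 sums step up between D7.5 and D8.5, and the fatty acid sum is 5447 CPM in CD1530 against 4188 CPM in AGN at D8.5 and 5933 against 4873 CPM at D10.

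In the lanosterol demethylase gene Cyp51 (chr5:4081145-4104746, minus strand, GRCm38), the CD1530 libraries held 225, 229 and 224 CPM at D7.5 and 437, 421 and 426 CPM at D8.5. The AGN libraries held 189.9, 191 and 195 CPM and then 367, 379 and 375 CPM. The days did not overlap in either condition, with log2 fold changes of 0.92 ± 0.03 (adjusted p = 5.74e-25, edgeR) and 0.96 ± 0.03 (adjusted p = 1.38e-25). Lss rose by a similar amount, 0.96 ± 0.04 in CD1530 and 1.00 ± 0.04 in AGN.

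Hsd17b7 (chr1:169949535-169969241, minus strand), which carries CACGTG and CCAAT in the stretch printed above, held 37.2, 38.6 and 41.4 CPM at D7.5 and 70.0, 72.9 and 70.7 CPM at D8.5 in CD1530. In AGN it held 37.2, 42.1 and 35.6 CPM and then 66.5, 60.6 and 66.4 CPM. All D8.5 libraries were above all D7.5 libraries, and the rises were 0.86 ± 0.06 and 0.75 ± 0.06 on the log2 scale. Sc5d (chr9:42251595-42264256, minus strand) held 68.6, 69.6 and 67.2 CPM and then 108, 106 and 103 CPM in CD1530. Its AGN libraries went from 56.2, 59.0 and 52.1 to 91.1, 92.6 and 91.7 CPM, so that the days were separate here too, at 0.63 ± 0.05 and 0.72 ± 0.05.

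Hmgcs1 (chr13:119690379-119708260, plus strand) was the only member with the letters TCACCCCAC in the windows at hand. Its CD1530 libraries held 352, 362 and 359 CPM at D7.5 and 566, 559.7 and 557 CPM at D8.5. Each AGN library held 335 CPM at D7.5, and they held 437, 475 and 482 CPM at D8.5. The rise was 0.65 ± 0.03 in CD1530 and 0.47 ± 0.03 in AGN. The genes next to it in the mevalonate pathway also rose: Acat2 by 0.67 and 0.82, Idi1 by 0.56 and 0.70, Mvk by 0.53 and 0.47 and Mvd by 0.50 and 0.45 in CD1530 and AGN.

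Insig1 (chr5:28071363-28078662, plus strand), itself a well-known SREBP target, held 174, 169 and 175 CPM at D7.5 and 286, 283 and 287 CPM at D8.5 in CD1530. The AGN libraries held 154, 156 and 142 CPM and then 260.1, 273 and 266 CPM. No library of one day reached the other day, and the log2 fold changes were 0.72 ± 0.04 and 0.82 ± 0.04. Srebf1 rose by 0.61 and 0.64, Stard4 by 0.53 and 0.67, and Srebf2 by only 0.20 ± 0.04 and 0.25 ± 0.04, the smallest called rises among the 4 regulators and carriers.

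The strongest rise in CD1530 was that of Scd2 (chr19:44293674-44306864, plus strand). Its CD1530 libraries held 1239, 1267 and 1247 CPM at D7.5 and 2504, 2525 and 2563 CPM at D8.5. Its AGN libraries held 1000.01, 1035 and 1010.3 CPM and then 1737, 1693 and 1749.5 CPM. The days did not overlap, and the rise was 1.02 ± 0.04 in CD1530 (adjusted p = 6.94e-25, edgeR) and 0.77 ± 0.04 in AGN. Its neighbour and paralogue Scd1 (chr19:44394455-44407879, minus strand) rose by 0.98 ± 0.05 and 0.83 ± 0.05, Fads2 by 0.72 and 0.58 and Fads1 by 0.59 and 0.61.

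Not every member was called in both conditions. Ebp held 24.7, 22.8 and 25.0 CPM at D7.5 and 29.6, 23.9 and 27.8 CPM at D8.5 in CD1530, with overlap between the days, and its differences of 0.16 ± 0.07 (adjusted p = 0.0693, edgeR) in CD1530 and 0.17 ± 0.07 (adjusted p = 0.0528, edgeR) in AGN were not called. Elovl6 differed by 0.12 ± 0.06 in CD1530 (adjusted p = 0.08, edgeR), which was not called, and rose by 0.27 ± 0.06 in AGN. Whether the step differed between the conditions was not tested gene by gene.

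**Figure D3:**
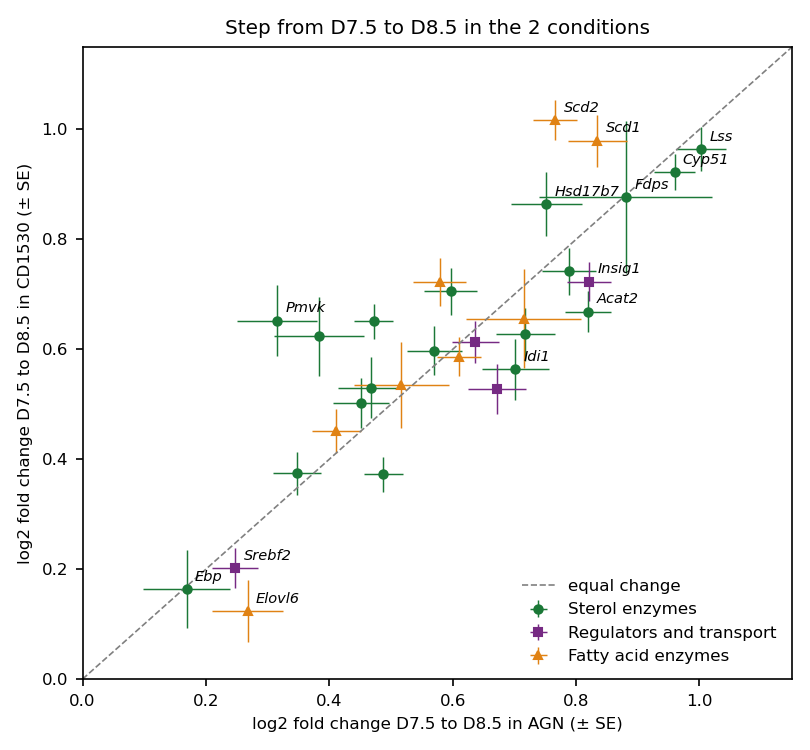
Log2 fold change from D7.5 to D8.5 in CD1530 (vertical axis) against that in AGN (horizontal axis) for the 30 members, with SE bars, symbols by role and a dashed line of equal change. All points lie above 0 on both axes, Scd2 and Scd1 are the highest points, and Ebp and Elovl6 lie lowest in CD1530.

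The proliferation genes did not move with the members over this step. Of 16 proliferation genes 1 rose and 9 fell in CD1530 (median -0.11), where 18.8% and 17.7% of all genes were called higher and lower. In AGN 4 fell, against 20.6% of all genes, and 12 were not called (median -0.04). Among the 4 adipocyte markers in the table, Cd36 fell in each condition and the other three were not called. Markers of other cell types moved over the same step. The summed pluripotency markers (Pou5f1, Nanog, Zfp42 and Dppa5a) went from 1046 to 1058 CPM at D7.5 to 619 to 642 CPM at D8.5 in CD1530, and from 888 to 949.6 CPM to 548 to 590.4 CPM in AGN. The summed neural markers (Sox1, Sox2, Pax6, Tubb3 and Elavl3) went from 319 to 326 CPM to 263 to 272 CPM in CD1530 and from 277 to 294 CPM to 157 to 172 CPM in AGN. Sox2 made up most of this sum, and its mean went from 254 to 175 CPM in CD1530. Tubb3 also went down there, while Sox1 (5.17 to 29.5 CPM), Pax6 (7.48 to 12.1 CPM) and Elavl3 (3.75 to 4.93 CPM) went up. In AGN only Elavl3 went up (2.68 to 4.38 CPM). The endoderm and liver markers, with Alb not in the table, went from 26.7 to 29.7 CPM to 8.62 to 9.49 CPM in CD1530 and from 27.1 to 28.7 CPM to 8.26 to 9.48 CPM in AGN. The summed endothelial markers (Pecam1, Cdh5, Kdr and Tal1) moved from 346 to 365 CPM at D7.5 to 216 to 226 CPM at D8.5 in CD1530, and from 207 to 232 CPM to 174 to 186 CPM in AGN. The part of these markers in the members' values was not tested.

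The earlier steps divided the members. From PM to D6.25, 7 members rose and 16 fell in CD1530, against 34.5% and 33.3% of all genes. In AGN 7 rose and 13 fell, against 35% and 33.1%. With library sizes alone as scaling, 11 rose and 13 fell in AGN. The medians were -0.11 and -0.07. In both conditions 6 members rose and 13 fell, against 32.1% and 30.2% of all genes. Those that rose in both were Hsd17b7, Sc5d, Cyp51, Insig1, Stard4 and Scd2. Of the 4 members with CACGTG in their windows, Hsd17b7, Sc5d and Insig1 rose in both conditions and Dhcr7 fell in both. Cyp51 rose without CACGTG in its window, and Stard4 and Scd2 had no window. A link between the motif and the direction was not tested. Those that fell in both included Ebp, Mvd, Tm7sf2, Fasn, Fdft1, Acat2 and Scd1.

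Hsd17b7 held 19.6, 20.7 and 19.7 CPM in PM and 43.8, 40.6 and 42.2 CPM at D6.25 in CD1530, and 47.5, 44.7 and 46.2 CPM in AGN. PM lay below both conditions without overlap, and the rise was 1.08 ± 0.06 and 1.21 ± 0.06. Stard4 held 51.6, 51.1 and 54.1 CPM in PM, then 82.7, 83.3 and 83.6 CPM in CD1530 and 94.9, 89.6 and 87.8 CPM in AGN, a rise of 0.67 ± 0.05 and 0.80 ± 0.05. In the other direction, Ebp (chrX:8185329-8193512, minus strand) held 48.4, 49.4 and 49.2 CPM in PM, then 30.7, 32.7 and 31.4 CPM in CD1530 and 28.3, 29.0 and 30.02 CPM in AGN. PM was the high group here, and the falls were -0.63 ± 0.06 and -0.75 ± 0.07. The medium changed at this step as well. Over the same step the summed pluripotency markers went from 2070.5 to 2174 CPM in PM to 961 to 1045 CPM at D6.25. The neural sum went from 581 to 595 CPM to 304 to 332 CPM, the endothelial sum from 96.8 to 103 CPM to 199.4 to 237 CPM, and the endoderm and liver sum from 1.63 to 2.37 CPM to 117 to 135 CPM. Sox2 made up most of the neural sum (mean 536 CPM in PM), and Tubb3 and Elavl3 went down with it. From low levels Sox1 (0.08 CPM in PM) and Pax6 (0.76 CPM) went up, to 0.65 and 1.43 CPM in CD1530 and 0.57 and 1.79 CPM in AGN. Pecam1 made up most of the endothelial sum in PM (mean 92.9 CPM) and went down, to 86.3 CPM in CD1530 and 81.6 CPM in AGN. Cdh5, Kdr and Tal1 went up from 2.50, 3.87 and 0.58 CPM in PM. They reached 66.1, 54.6 and 9.62 CPM in CD1530 and 63.8, 52.7 and 7.12 CPM in AGN. Sox17 (0.97 CPM in PM) and Foxa2 (0.73 CPM) made up most of the endoderm and liver sum at D6.25. They reached 67.5 and 46.1 CPM in CD1530 and 80.9 and 49.5 CPM in AGN. The group means of Afp, Ttr, Apoa1 and Apob were at most 2.26 CPM on that day. Of the 16 proliferation genes 16 fell in CD1530 and 15 in AGN (medians -0.56 and -0.54). The part of these changes in the members' differences was not tested.

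From D6.25 to D6.75, 22 members rose and 2 fell in CD1530, against 25.8% and 20.1% of all genes, and 16 rose and 3 fell in AGN, against 24.9% and 18.8%. The medians were 0.25 and 0.10. From D6.75 to D7.5 the members moved little in CD1530, with 5 higher and 3 lower, against 18.7% and 15.5% of all genes. In AGN 3 were higher and 12 lower over that step, against 14.2% and 16%, with a median of -0.09. The CD1530 split was 4 and 4 with DESeq2 size factors and 4 and 5 with library sizes alone. Its total of 8 calls fell to 4 without replicate 2 and to 5 without replicate 1 of CD1530 at D7.5, and to 1 when only the compared groups were fitted.

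From D8.5 to D10 more members fell than rose. In CD1530 7 rose and 17 fell, against 27.4% and 29.9% of all genes, and in AGN 6 rose and 15 fell, against 29.9% and 29.5%. With library sizes alone 5 rose and 22 fell in CD1530. The medians were -0.15 and -0.12. Lss fell by 0.63 on the log2 scale in CD1530 and by 0.38 in AGN, Idi1 by 0.44 and 0.51, Sqle by 0.31 and 0.53 and Hmgcs1 by 0.31 and 0.21. Tm7sf2 rose by 0.56 and 0.66, Fads1 by 0.39 and 0.38, Scd2 by 0.33 and 0.55 and Srebf1 by 0.20 and 0.38. In 1 member, against 2.64% of all genes, the conditions went in opposite directions: Hsd17b7 rose by 0.21 ± 0.05 in CD1530 (adjusted p = 0.00135, edgeR) and fell by 0.30 in AGN (adjusted p = 1.83e-05).

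Against PM, 23 members were higher and 4 lower in CD1530 at D10, where 43.3% and 39.9% of all genes were called. In AGN 23 were higher and 6 lower, against 41.6% and 40.4%. The member medians were 0.70 and 0.57. These comparisons share the PM libraries. The widest rises were in Hsd17b7 (2.04 ± 0.06 in CD1530 and 1.39 ± 0.06 in AGN), Fads1 (1.88 and 1.68), Scd2 (1.82 and 1.49), Fads2 (1.68 and 1.33), Sc5d (1.55 and 1.35) and Cyp51 (1.53 and 1.23).

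Fads1 (chr19:10182888-10196877, plus strand) ended well above PM in both conditions. It held 155, 149 and 150.2 CPM in PM, in CD1530 248, 282 and 291 CPM at D6.75, 287, 283 and 281 CPM at D7.5, 428, 427 and 423 CPM at D8.5 and 553, 560.1 and 559 CPM at D10. In AGN it held 254, 255 and 256 CPM at D6.75, then 246, 242 and 241 CPM, then 372, 373 and 369 CPM, and then 489, 485 and 479.7 CPM. In AGN D7.5 lay below D6.75, and in both conditions D8.5 and D10 each lay above the day before without overlap. CD1530 lay above AGN at D7.5, D8.5 and D10.

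The members below PM at D10 were few. Ebp was lower by 0.69 ± 0.07 log2 units in CD1530 (-0.69) and by 0.75 in AGN (-0.75), Elovl6 by 0.66 (-0.66) and 0.78 (-0.78), Fasn by 0.34 (-0.34) and 0.67 (-0.67), and Fdft1 by 0.15 (-0.15) and 0.25 (-0.25). Sqle (-0.08 ± 0.03) and Acly (-0.20 ± 0.04) were called lower in AGN and not called in CD1530. Of the 16 proliferation genes 15 fell in each condition from PM to D10, with medians of -0.92 and -0.61.

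The ligands were compared on each day to ask whether the tendon and fibrocartilage conditions differed in these genes. The members were mostly higher in CD1530 from D7.5 on, and the fatty acid enzymes carried the largest differences at D7.5 and D8.5. At D6.25 0 members were called higher and 6 lower (Mvk, Lss, Cyp51, Nsdhl, Dhcr7 and Scd2), against 1.23% and 0.695% of all genes. Of the members at D6.25, 1 was higher at an unadjusted p under 0.05 with edgeR, and DESeq2 called 0 higher. At D6.75 6 were higher (Elovl6, Ebp, Msmo1, Idi1, Scd1 and Fads1) and 0 lower, with 0 lower also at an unadjusted p under 0.05 in edgeR and 0 called lower by DESeq2, against 7.94% and 10% of all genes. Of these 12 calls 0 held under every alternative. Leaving out any 1 of the 6 libraries of D6.25 left 1 to 3 calls, and leaving out replicate 1 of AGN at D6.75 left 2. When only the 6 libraries of D6.75 were fitted 0 members were called with edgeR, 5 being higher at an unadjusted p under 0.05.

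At D7.5 19 members were higher in CD1530 and 1 was lower, against 15.2% and 11.8% of all genes. A day later these numbers were 20 and 1, against 20.4% and 19.6%. For D10 they were 17 and 3, against 22.7% and 24%. The member medians were 0.13, 0.17 and 0.16, and that of all genes at D10 was -0.02. Over the 5 days 29 members were called at least once, against 66.4% of all genes, and 28 were higher on some day, against 36%. Fdps was called on none. The largest log2 difference on any day was 0.68. Higher on D7.5, D8.5 and D10 were 10 members, against 7.31% of all genes. Other genes moved with the ligands on these days as well. At D7.5, 11 of 16 proliferation genes were lower in CD1530, all 4 endothelial markers were higher (summed 346 to 365 CPM against 207 to 232 CPM in AGN) and 4 of 5 neural markers were higher. At D8.5, 12 of the proliferation genes and all 5 fibrocartilage markers were lower in CD1530, and the summed neural markers were 263 to 272 CPM against 157 to 172 CPM in AGN. Their part in the members' differences was not tested.

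**Figure D4:**
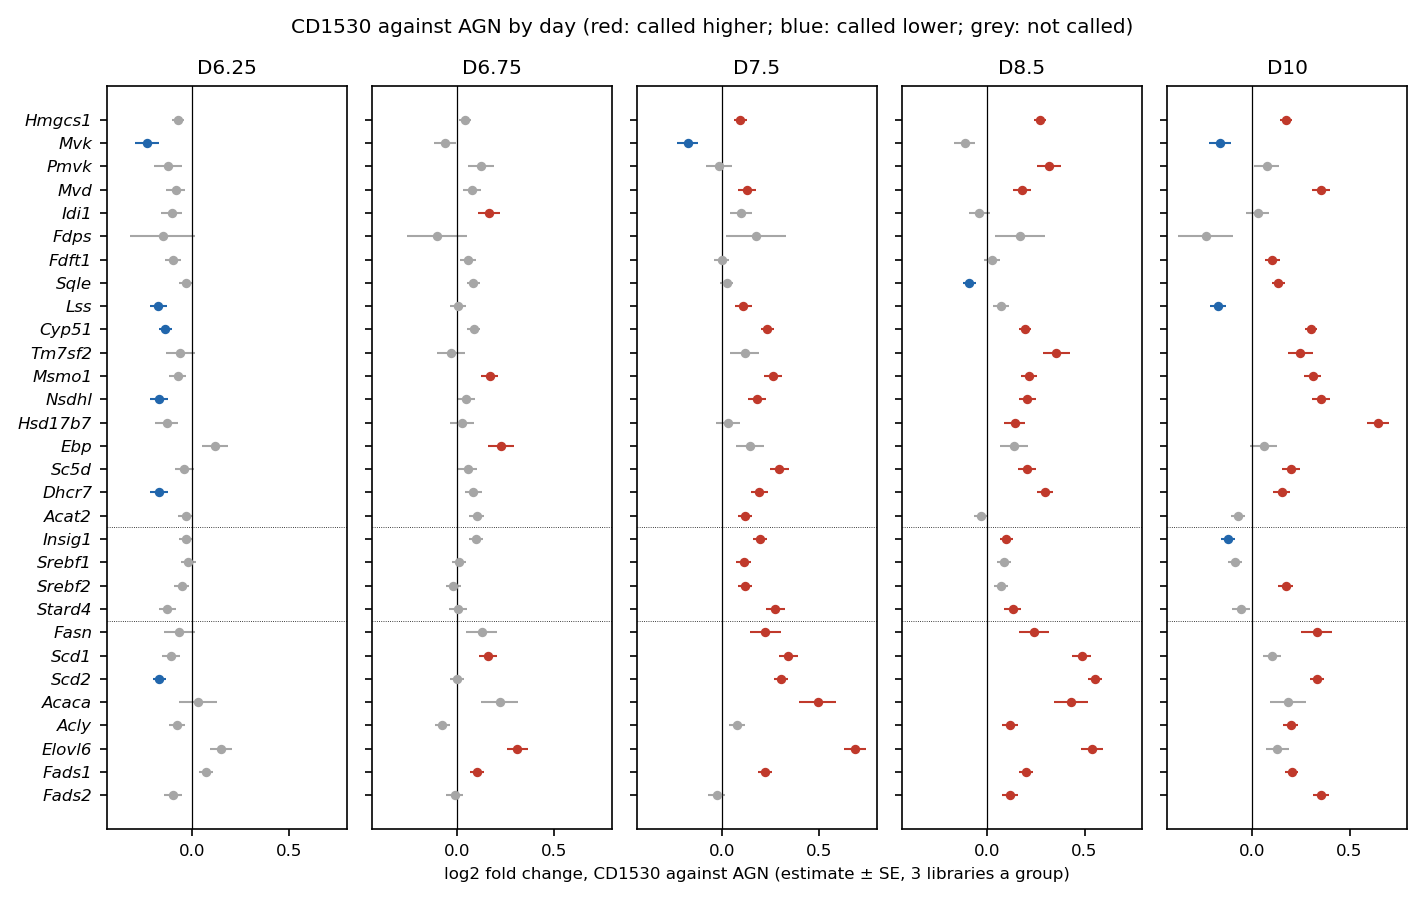
Log2 fold change of CD1530 against AGN (horizontal axis, estimate with SE, 3 libraries a group) for each member (rows, by role) on each day (panels), with called values in red (higher) or blue (lower). Red points fill the right of the panels from D7.5 on, and the largest are Elovl6 at D7.5 (0.68) and Hsd17b7 at D10 (0.65).

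Among the 8 fatty acid enzymes CD1530 was higher for 6 at D7.5, for 8 at D8.5 and for 5 at D10, the medians being 0.26, 0.34 and 0.20. Elovl6 (chr3:129532355-129638495, plus strand), the elongase of palmitate, held 151, 159 and 159 CPM in CD1530 and 96.3, 99.2 and 96.9 CPM in AGN at D7.5. At D8.5 it held 172, 167 and 172 CPM against 115, 117 and 121 CPM, and at D10 106, 92.8 and 102 CPM against 92.8, 88.8 and 93.1 CPM. The conditions were far apart at D7.5 and D8.5 and overlapped at D10, with log2 fold changes of 0.68 ± 0.06 (adjusted p = 3.4e-12, edgeR), 0.54 ± 0.06 (adjusted p = 4.62e-10) and 0.13 ± 0.06 (adjusted p = 0.0724, not called).

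Scd2 moved the other way at first. At D6.25 its CD1530 libraries held 999.5, 1059.7 and 1080.3 CPM and its AGN libraries 1173, 1162 and 1189 CPM, a difference of -0.17 ± 0.04. At D8.5, where the libraries are given above, CD1530 was higher by 0.55 ± 0.04 (adjusted p = 1.6e-16, edgeR), and at D10 it held 3153, 3199 and 3214 CPM against 2537, 2524 and 2539 CPM, a difference of 0.33 ± 0.04 (adjusted p = 2.1e-10). AGN was thus the higher condition at D6.25 and the lower at D8.5 and D10, without overlap on any of the 3 days.

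The other fatty acid enzymes differed in the same direction. Acaca was higher in CD1530 by 0.49 ± 0.09 at D7.5 and 0.43 ± 0.09 at D8.5, Scd1 by 0.34 ± 0.05 and 0.48 ± 0.05, and Fasn by 0.22, 0.24 and 0.33 at D7.5, D8.5 and D10. Fads2 was higher by 0.12 at D8.5 and 0.35 ± 0.04 at D10, Acly by 0.12 and 0.20, and Fads1 by 0.22, 0.20 and 0.20 from D7.5 on. At D10 Scd1 (0.10 ± 0.05, adjusted p = 0.068) and Acaca (0.18 ± 0.09, adjusted p = 0.112) were not called by edgeR.

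Among the sterol enzymes CD1530 was higher for 9 and lower for 1 at D7.5. The numbers were 10 and 1 for D8.5, then 11 and 2 for D10. Hsd17b7 differed most, and only late: at D8.5 its difference was 0.14 ± 0.05, and at D10 the CD1530 libraries held 84.1, 81.3 and 81.3 CPM and the AGN libraries 52.2, 51.3 and 54.1 CPM. The D10 groups were far from overlapping, at 0.65 ± 0.06 (adjusted p = 8.53e-13, edgeR). Tm7sf2 (chr19:6062821-6068373, minus strand) held 29.4, 31.2 and 30.5 CPM against 23.9, 24.8 and 22.6 CPM at D8.5, and 42.6, 45.2 and 46.4 CPM against 39.4, 34.4 and 39.3 CPM at D10. CD1530 was the higher condition on both days without overlap, at 0.35 ± 0.07 and 0.25 ± 0.07.

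The enzymes between lanosterol and cholesterol differed along most of the route. Cyp51 was higher in CD1530 by 0.23 at D7.5, 0.20 at D8.5 and 0.30 ± 0.03 at D10 (adjusted p = 1.82e-10, edgeR), Msmo1 by 0.26, 0.21 and 0.31, and Nsdhl by 0.18, 0.21 and 0.35. Sc5d was higher by 0.29, 0.20 and 0.20 and Dhcr7 by 0.19, 0.30 and 0.15. In the mevalonate segment, Hmgcs1 was higher by 0.09, 0.27 and 0.17 and Mvd by 0.13, 0.18 and 0.35 on these days. Mvk, the mevalonate kinase, went the other way and was lower in CD1530 at D6.25 (-0.23 ± 0.06), D7.5 (-0.18 ± 0.06) and D10 (-0.17 ± 0.06), and its difference at D8.5 (-0.12) was not called. At D10 its CD1530 libraries held 50.9, 53.7 and 49.2 CPM and its AGN libraries 58.8, 56.5 and 57.2 CPM, with CD1530 below AGN throughout. Lss was also lower in CD1530 at D10 (-0.18 ± 0.04) after being higher at D7.5 (0.11 ± 0.04).

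The regulators shifted between days. All 4 were higher in CD1530 at D7.5, with Stard4 at 0.27 ± 0.05, Insig1 at 0.20 ± 0.04, Srebf2 at 0.12 and Srebf1 at 0.11. Stard4 held 67.8, 66.8 and 68.6 CPM against 56.8, 56.0 and 55.4 CPM on that day and 87.4, 86.0 and 85.1 CPM against 91.0, 90.6 and 87.7 CPM at D10, where its difference of -0.06 (adjusted p = 0.315, edgeR) was not called. Insig1 held 247, 243 and 254 CPM in CD1530 and 277, 262 and 272 CPM in AGN at D10. AGN was the higher condition for Insig1 by then, at -0.13 ± 0.04 (adjusted p = 0.00316, edgeR), while Srebf2 was higher in CD1530 (0.17 ± 0.04) and Srebf1 was not called (-0.09, adjusted p = 0.0505).

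**Figure D5:**
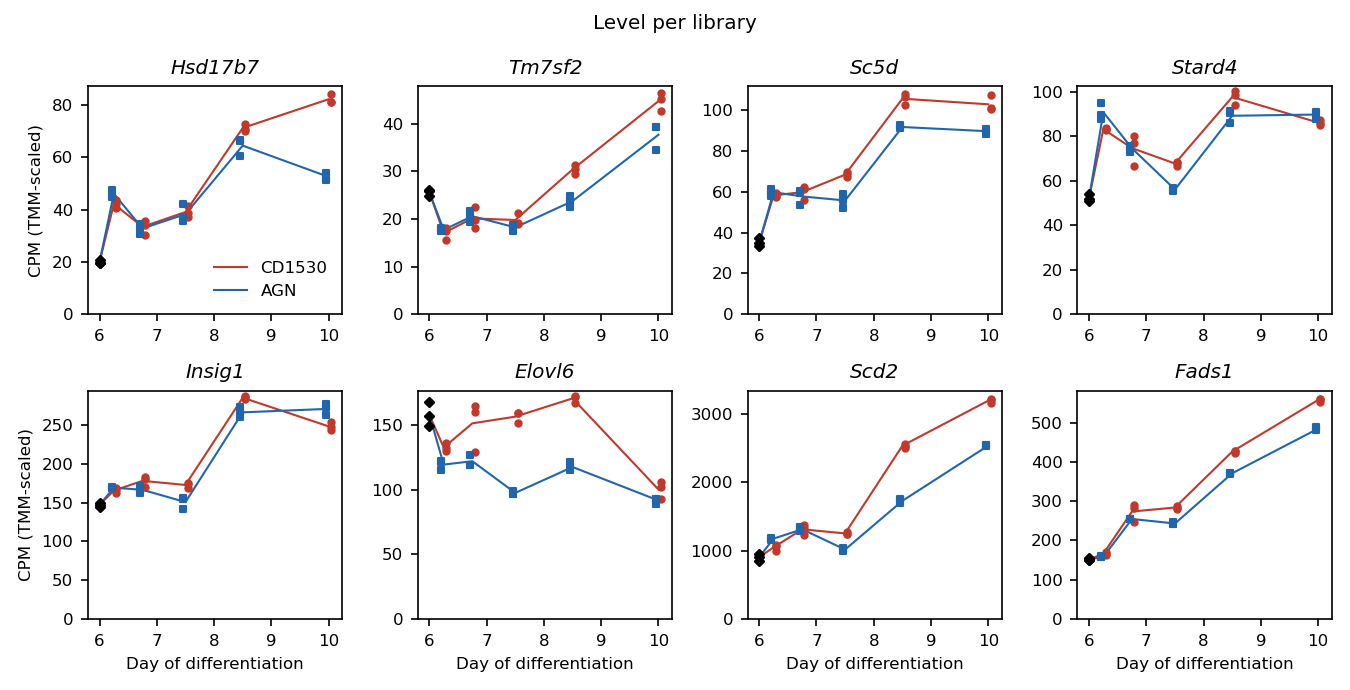
CPM per library against day of differentiation for 8 members (black diamonds PM, red circles CD1530, blue squares AGN, shifted slightly sideways), with lines through the group means. Hsd17b7 parts at D10, Elovl6 is apart at D7.5 and D8.5 and nearly meets at D10, and the lines of Stard4 and Insig1 cross between D8.5 and D10.

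The difference between the ligands changed with the day for most members. An interaction of condition with time over the 5 days was called for 27 of the 30 members, against 48.8% of all genes, and not for Mvk, Fdps and Ebp. For the last step alone, from D8.5 to D10, it was called for 12 members, against 26.8% of all genes, and for 20 when only the 4 groups compared were fitted. It was positive for 4, against 12.7% of all genes, and negative for 8, against 14.1%. The change over that step was higher in CD1530 for Hsd17b7 (0.51 ± 0.08, adjusted p = 3.29e-06, edgeR), Fads2 (0.23 ± 0.06), Sqle (0.23 ± 0.05) and Mvd (0.17 ± 0.06). It was lower in CD1530 for Elovl6 (-0.41 ± 0.08), Scd1 (-0.38 ± 0.07), Lss (-0.25 ± 0.06), Pmvk (-0.24 ± 0.09), Insig1 (-0.22 ± 0.05), Scd2 (-0.22 ± 0.05), Stard4 (-0.19 ± 0.06) and Srebf1 (-0.17 ± 0.05). Thus 3 of the 4 regulators and carriers and 3 of the 4 fatty acid enzymes called lost ground in CD1530 relative to AGN over this step.

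Other genes moved with the ligands at D10. Of the 16 proliferation genes 14 were lower in CD1530, against 24% of all genes, and the others were not called (median -0.33). The summed fibrocartilage markers differed as given above. The summed neural markers were 139.8 to 152 CPM in CD1530 and 65.9 to 66.7 CPM in AGN at D10. Their part in the members' differences was not tested. The 4 adipocyte markers in the table summed to 26.3 to 28.6 CPM in CD1530 and 28.0 to 31.8 CPM in AGN at D10.

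The rest of the pathway was read from lists of genes that are not members. Of all genes, 22.7% were called higher in CD1530 at D10 and 24% lower, the shares beside which the D10 counts of these lists stand. Among 9 other sterol and isoprenoid enzymes, 6 were higher in CD1530 at D10 and the other three not called (median 0.43), among the former Cyp7b1, an oxysterol hydroxylase (1.12 ± 0.15, adjusted p = 2.08e-08, edgeR). From D7.5 to D8.5, 4 of this list rose and 5 were not called in CD1530, where 18.8% of all genes rose. In AGN 3 rose and 1 fell, against 21.4% and 20.6% of all genes.

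Genes of sterol uptake went both ways, and few of SREBP processing were called. Of 4 genes of SREBP processing, Scap was higher in CD1530 at D10 (0.51 ± 0.04) and the others were not called. That count is near the share of all genes. Of 8 genes of sterol uptake and traffic, 3 were higher and 4 lower in CD1530 at D10, the latter including the lipoprotein receptors Lrp8 (-1.01 ± 0.08) and Vldlr (-0.27 ± 0.09). Of 6 receptors and targets of the oxysterol sensor LXR, 1 was higher in CD1530 at D10, the phospholipid acyltransferase Lpcat3 (0.31 ± 0.05), and 3 were lower, among them Mylip (-1.12 ± 0.07), a ligase that degrades lipoprotein receptors.

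Of 19 measured genes of a list of 21 for other steps of fatty acid synthesis and activation, 10 were higher and 4 lower in CD1530 at D10 (median 0.16). Acss2, which makes acetyl-CoA from acetate, was higher by 0.59 ± 0.08 at D10 and rose from D7.5 to D8.5 by 1.08 ± 0.10 in CD1530 and 0.69 ± 0.10 in AGN. Of 11 measured genes of 12 for fatty acid oxidation, 5 were higher and 3 lower in CD1530 at D10, the latter including Cpt1a, the entry enzyme of mitochondrial oxidation (-1.07 ± 0.07), and Acadl (-0.49 ± 0.05).

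The members' profiles over the 11 group means were compared by Pearson correlation, as a description over groups that share a culture time and a scaling. The median over pairs was 0.78 among the 153 pairs of sterol enzymes, 0.57 among the 28 pairs of fatty acid enzymes and 0.72 between the 144 pairs of one with the other. Msmo1 was closest to the mean profile of the sterol enzymes (0.98), and Ebp (-0.25), Elovl6 (-0.12) and Fasn (0.49) were farthest. Of the genes that are not members and had a mean of at least 50 counts, the 10 closest to that mean profile were Aacs (0.98), Erg28 (0.97), Gm5873 (0.96), Garem2, Polr2m, Gm3571, Mfsd2a, Ndufa8, Sys1 and Foxk2 (0.94). Aacs, which makes acetoacetyl-CoA from a ketone body, rose from D7.5 to D8.5 by 0.49 ± 0.04 in CD1530 and 0.62 ± 0.04 in AGN. Erg28, a scaffold of the enzymes that demethylate sterols, rose by 0.41 ± 0.06 and 0.30 ± 0.06. Gm3571 and Gm5873 are processed pseudogenes that share 12.1% and 5.53% of the 50-base words of Fdps, and their group means reached 99.2 and 42.0 CPM at D8.5 in CD1530 against 9.26 CPM for Fdps, and how reads of the shared words were counted is not given in the sources used here.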

How the data were processed

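Gene counts came from 33 libraries of mouse ES cell cultures, 3 biological replicates in each of 11 groups. The authors sequenced paired reads, aligned them with STAR to GRCm38 and counted them with featureCounts, and the deposited table holds raw whole-number counts per gene for the 17120 genes they kept. Whether counting used strand, how it treated reads that fit several genes, and the annotation release are not given in the sources used here. Which of the study's ES lines gave which replicate is not given either, so p-values measure the spread between these libraries.

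All 17120 genes were fitted in 1 model over the 11 groups with edgeR 4.0.16 (TMM scaling, robust quasi-likelihood, R 4.3.3, limma 3.58.1), with Benjamini-Hochberg adjustment over all genes in each of 19 comparisons and a threshold of 0.05. Totals ranged from 17.1 to 38.1 M counts with a median of 19.9 M. The biological coefficient of variation was 4.68%. The fit was tested on simulated data. DESeq2 1.42.0, other scalings and filters, fits of the compared groups only, a replicate block and leaving out each library were the alternatives. Figures and sequences were handled in Python 3.11.15, and gene positions come from GENCODE for GRCm38.

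The members and lists were chosen with earlier results of these data known. Values per library are given for the members of each role with the largest log2 fold change between ligands on any day and between PM and D10. Those of Cyp51, Hmgcs1, Ebp and Mvk were chosen after their values were seen. Named too are the 10 other genes, averaging 50 counts or more, whose profile over the groups was most like that of the sterol enzymes. Some genes of the other lists are not reported here by name.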

Additional observations from a re-analysis of the deposited data

Results flagged for a closer look

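The difference between CD1530 and AGN changed with the day for 27 of the 30 members by the edgeR interaction over 5 days, against 48.8% of all genes. Over the step from D8.5 to D10 it changed for 12, against 26.8% of all genes. A further 7 results were picked out because a member was called in both directions on different days. The share of all genes called in both directions was not counted. The interaction was computed from the same libraries as those calls, so its p adds no separate support to them. Scd2 had the smallest adjusted p of that interaction among these (5.7e-15), being lower in CD1530 at D6.25 and higher from D7.5 on. Cyp51 (1.09e-09), Nsdhl (1.74e-07) and Dhcr7 (7.7e-07), enzymes between lanosterol and cholesterol, followed the same course. Lss (3.23e-05) was lower in CD1530 at D6.25, higher at D7.5 and lower at D10. Insig1 (7.59e-06) was higher at D7.5 and D8.5 and lower at D10, and Sqle (0.000434) was lower at D8.5 and higher at D10. The lower calls at D6.25 of Lss, Cyp51, Nsdhl, Dhcr7 and Scd2 were each lost under at least 1 alternative. Groups of 3 libraries were too small for a test of outlying samples, and the deviation of CD1530 replicate 1 at D6.75 is given as a description.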

How the results depend on the processing

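The rises from D7.5 to D8.5 kept all 28 calls in CD1530 and all 29 in AGN under every alternative. Of the calls between ligands, 12 of 20 at D7.5, 15 of 21 at D8.5 and 18 of 20 at D10 held throughout, and 0 of 6 at D6.25 and 0 of 6 at D6.75. At D6.75, 10 members were called with library sizes alone and 0 with the compared groups only. From D6.75 to D7.5 in CD1530, 1 was called with the compared groups only, and the last-step interaction then had 20. Leaving out 1 library gave 1 to 3 calls at D6.25 (lowest without CD1530 replicate 2), 2 to 7 at D6.75 (lowest without AGN replicate 1) and 4 to 9 for CD1530 from D6.75 to D7.5 (lowest without its replicate 2 at D7.5). With library sizes alone, Hmgcs1 (-0.0248) and Srebf2 (-0.0128) turned negative in AGN at D10 against PM, where the median of all genes was -0.15. That median was -0.13 for CD1530 and -0.11 for AGN from D8.5 to D10. The cause of these changes was not tested. The replicate numbers did not pair the libraries: correlations of deviations ran from -0.10 to 0.16, and in no comparison was every pair over 0.1. A fit with the replicate block called 5, 5, 20, 21 and 20 members between ligands on the 5 days, 28 and 29 from D7.5 to D8.5, and 27 and 11 in the interactions. With 3 libraries a group, differences such as that of Fdps, the member with fewest counts, were not resolved.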
